A study of Mus musculus with 12 samples.

Results

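The ileal transcriptome of mice given fat and sugar together was set against that of mice given neither. The comparison takes 6 of the 12 libraries of the series, namely 3 of the Western diet (WD, HF_Sugar in the labels) and 3 of the normal diet (ND, NF in the labels). WD mice ate a high-fat diet, with 60% of its energy from fat, and drank a 23% (w/v) sugar solution, whereas ND mice ate a normal-fat diet and drank plain water. The other 6 libraries come from mice given the high-fat diet with plain water (HF, 3 libraries) or the normal-fat diet with the sugar drink (NF_Sugar, 3 libraries), and are used for the spread and for side-by-side values. All mice were C57BL/6, were 16 weeks old and had been on their diet for 10 weeks from the age of 6 weeks. RNA was isolated from whole ileum of each mouse on its own, so a library holds epithelium, immune cells, muscle and any attached fat.

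The ileum is the last part of the small intestine. Its enterocytes take up lipids, peptides, sugars and bile acids on a villus that crypt stem cells renew, and its Peyer's patches and lamina propria hold B cells, plasma cells and T cells. Enterocytes adapt their absorptive and detoxifying genes to the diet through nuclear receptors such as those of the PPAR family. Interferons switch on antiviral and antigen-presentation genes in epithelium and immune cells alike.

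Expression is given as RPKM, reads scaled to gene length and library size, and a difference as the change in log2(RPKM + 1) with its standard error (SE) from limma, a linear model with a moderated test fitted over all genes. Of 44205 genes, 17662 reached 0.5 RPKM in at least 3 libraries and were tested. Tas1r3, which was to be kept in any case for the study's interest, reached that level in the WD libraries alone. With a Benjamini-Hochberg adjusted p under 0.05 as the threshold, 0 genes (0% of those tested) were called in WD against ND. The smallest limma adjusted p was 0.081, that of Il1b. At an unadjusted p under 0.05 there were 793 genes, 387 higher (2.19%) and 406 lower (2.3%) in WD. All 3 WD libraries lay above all 3 ND libraries, in deposited and in scaled RPKM, for 753 genes (4.26% of those tested), and all 3 lay below for 411 (2.33%). The values that follow are therefore a description of single genes and lists, and none of them passed the test over all genes.

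By the steps between low values, WD libraries held 16.3 to 27.4 M reads and ND libraries 24.1 to 39 M. Fabp6 and Slc10a2, which carry bile acids in ileal enterocytes, stood at 2415 to 9226 and 82.6 to 123 RPKM in WD libraries, against 2557 to 9713 and 83.7 to 122 RPKM in ND libraries, as the ileum label asks. The colon marker Car1 varied within both groups (0, 0.0293 and 34 RPKM in WD replicates 1 to 3, 0.103, 17.2 and 241 in ND replicates 1 to 3). Aqp8, a water channel of the colon, was at 12 RPKM in ND replicate 3 and at 0.272 or less in the other 5 libraries of the comparison. The pancreatic enzyme gene Ctrb1 was at 1.26 RPKM in WD replicate 1 and at 0.0472 or less in the other 5 libraries of the comparison. On the first principal component (40.1% of the variance) WD replicate 2 and ND replicate 2 stood apart from their groups, together with 1 library of each other diet. Xist was at 0.051 RPKM or less and the Y-linked gene Ddx3y at 2.06 RPKM or more in every library of the series. Some deposited values carried more digits than the rest of the table or came back as fractions of a read, and are called irregular. Of 61 tested genes with such a value in a WD library, 17 (27.9%) were higher in WD at an unadjusted p under 0.05 and 0 were lower. Of 89 tested genes with such a value in an ND library, 0 were higher and 2 were lower. What made these values irregular was not tested.

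The direction of the differences went with the level of a gene. Among 10564 genes with a mean under 5 RPKM over the 12 libraries, 607 (5.75%) had all WD libraries above all ND libraries and 184 (1.74%) had all below. Among 1079 genes between 50 and 500 RPKM the counts were 4 (0.371%) and 53 (4.91%), and among 115 genes at 500 RPKM or more they were 0 and 7 (6.09%). The median log2 difference was 0.01 in the lowest class, -0.06 between 5 and 50 RPKM, -0.15 between 50 and 500 and -0.07 at 500 or more, against -0.02 over all genes. After scaling, abundant ileal transcripts were thus more often lower in WD and scarce ones more often higher. Between 5 and 50 RPKM 37.6% of genes were higher, and between 50 and 500 RPKM 27.6%. The counts of lists below are to be read beside these shares as well as those of all genes. In the RPKM as deposited, without further scaling, the class of 50 to 500 RPKM kept a negative median (-0.08), with 36.5% of genes higher. The class of 5 to 50 RPKM then had a median of -0.0024 with 49.3% higher, and that of 500 or more 0.00056 with 50.4% higher. Under 5 RPKM 61.4% were higher. The lower direction between 5 and 50 RPKM and at 500 or more thus depended on the scaling. Without ND replicate 3 the medians were -0.21 between 50 and 500 RPKM and -0.31 at 500 or more, and without ND replicate 1 they were -0.08 and -0.02. The median at 500 RPKM or more was also -0.02 without ND replicate 2 and -0.12 without WD replicate 1.

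**Figure D1:**
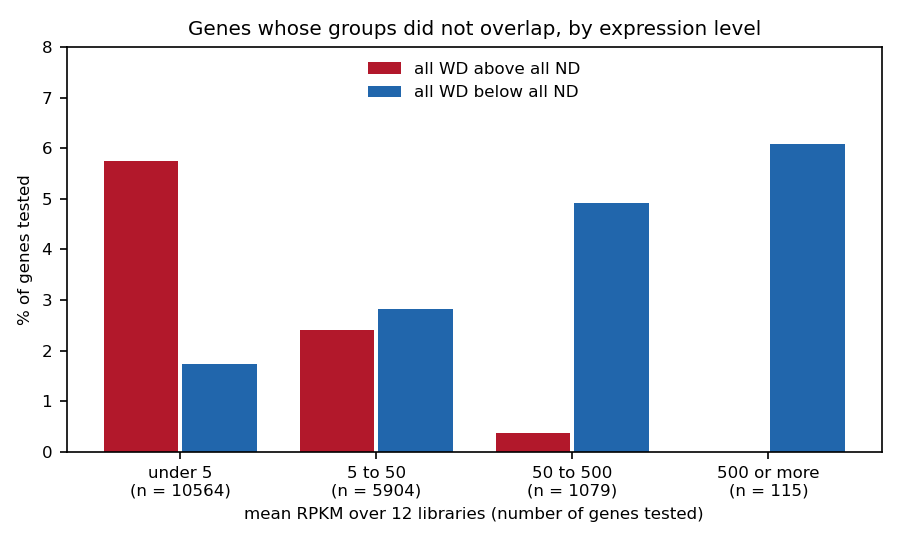
Share of tested genes (vertical axis, %) whose 3 WD libraries all lay above (red) or all lay below (blue) the 3 ND libraries, by mean RPKM over the 12 libraries (horizontal axis). The share above is 5.75% in the lowest class and 0% in the highest, while the share below is 1.74% and 6.09%.

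The genes with the largest differences on the lower side have various roles. The 12 annotated protein-coding genes with the largest difference were taken among those at an unadjusted p under 0.05, with groups that did not overlap and at least 1 RPKM in the higher group, so that their direction was chosen and not tested. They were Pck1, Slc30a10, Cyp2b10, Il18, Mt1, Arl14, Areg, Gprc5a, Sult1a1, Slc15a1, Ntan1 and Akr1b7. Their differences ran between -1.87 and -0.80, and their limma adjusted p was 0.961 in each case. In bulk tissue, fewer cells of a type and less RNA per cell cannot be told apart.

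Pck1 encodes the cytosolic phosphoenolpyruvate carboxykinase of gluconeogenesis and glyceroneogenesis (chromosome 2, 173153048 to 173159273, build GRCm38). It was at 6.84, 10.9 and 10.1 RPKM in WD, against 48.1, 15.9 and 52.4 RPKM in ND. The means differed 4.18-fold, with a log2 difference of -1.87 ± 0.53 (SE). The lowest ND value, in the library that stood apart, lay well below the other ND values and still above all WD values. HF libraries (57.2, 19 and 14.7 RPKM) and NF_Sugar libraries (16.9, 12.1 and 26.6 RPKM) all lay above the WD range, and 2 of these 6 values lay below the lowest ND value.

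Slc30a10 encodes a manganese exporter of the cell surface (chromosome 1, 185454848 to 185468762). It was at 0.489, 0.505 and 0.21 RPKM in WD, against 3.24, 2.13 and 1.96 RPKM in ND, a difference of -1.32 ± 0.56. All WD values lay far below the lowest ND value. NF_Sugar libraries spread most, with 4.19, 0.24 and 0.18 RPKM. The metallothionein gene Mt1, whose product binds zinc and copper, was at 132, 68.2 and 63.2 RPKM in WD, against 247, 145 and 159 RPKM in ND (-1.17 ± 0.47). Its neighbour Mt2 was at 51.5, 23.7 and 25 RPKM in WD, against 82.6, 37.8 and 82.8 RPKM in ND (-1.07 ± 0.47), and its groups overlapped.

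Areg, the gene of the EGF receptor ligand amphiregulin, was at 2.56, 0.932 and 2.93 RPKM in WD, against 6.65, 3.47 and 4.06 RPKM in ND (-0.95 ± 0.31). HF libraries (1.47 to 3.2 RPKM) and NF_Sugar libraries (1.75 to 2.46 RPKM) lay below the ND range as well. Gprc5a, an orphan receptor induced by retinoic acid, had a like order, at 27.7, 33.4 and 24.6 RPKM in WD, against 63.8, 51.1 and 43.9 RPKM in ND (-0.93 ± 0.41). All 3 HF values (22.9 to 35.3 RPKM) and all 3 NF_Sugar values (11.9 to 41.9 RPKM) of Gprc5a were also below those of ND. WD, HF and NF_Sugar are all set against the same ND libraries, so these differences are not independent of each other. Arl14, a small GTPase gene, was at 4.03, 2.92 and 3.28 RPKM in WD, against 7.01, 10.1 and 5.83 RPKM in ND (-1.01 ± 0.31).

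**Figure D2:**
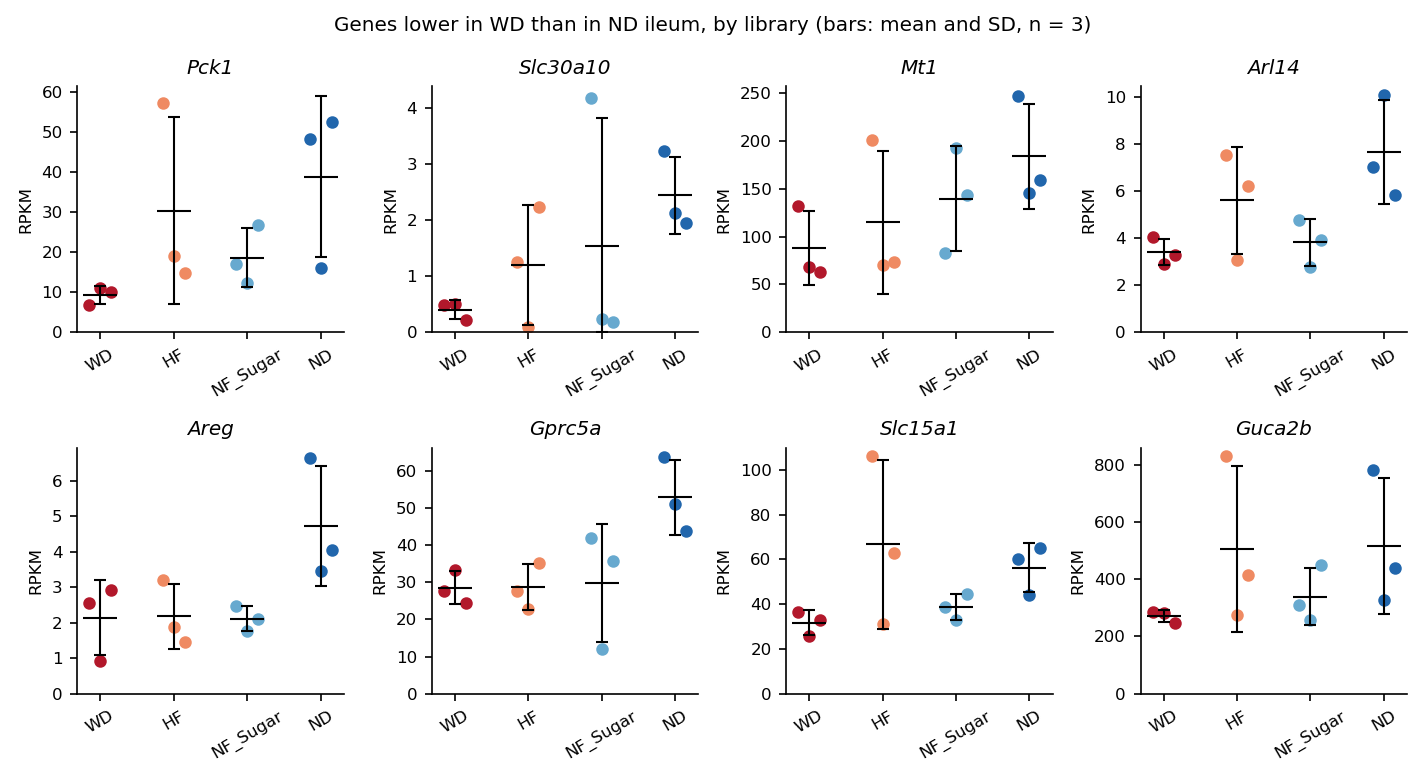
RPKM (vertical axes) of 8 genes in each of the 12 libraries in the 4 diets (horizontal axes), where bars in black give the mean and SD of 3 mice. In all 8 panels the 3 WD points lie below the 3 ND points, for Pck1 at 6.84 to 10.9 against 15.9 to 52.4 RPKM, while HF and NF_Sugar points spread more widely for most genes.

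Genes of peptide and amino acid uptake were partly lower. Slc15a1 encodes PEPT1, the proton-coupled carrier of di- and tripeptides on the enterocyte brush border. It was at 36.7, 25.9 and 32.7 RPKM in WD, against 60.1, 43.9 and 65.2 RPKM in ND (-0.87 ± 0.36), and reached 106 RPKM in HF replicate 1. Slc7a8, the basolateral carrier LAT2 of neutral amino acids, was at 12.7, 14 and 11.8 RPKM in WD, against 21.3, 17.4 and 21.8 RPKM in ND (-0.67 ± 0.28). Slc38a2, a carrier induced by amino acid shortage, ran the other way, at 13.7, 13.5 and 16.3 RPKM in WD, against 9.54, 11 and 9.8 RPKM in ND (0.42 ± 0.18). Over the list, 18 of 25 tested members were lower and 7 (28%) higher, against 53.6% and 46.4% of all genes. The list mean was 5.58 in WD and 5.73 in ND in log2(RPKM + 1). Among all genes between 5 and 50 RPKM 37.6% were higher, and among those between 50 and 500 RPKM 27.6%. The count of this list was thus near that of genes of its level. Groups did not overlap below for 4 (2.33% of all genes) and above for 1 (4.26%). The median was -0.10, with -0.24 without ND replicate 3, -0.20 without WD replicate 1 and -0.06 without WD replicate 3.

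Guanylin signaling controls fluid and salt in the gut lumen, and the genes of its ligands and receptor were each lower. Guca2a, the guanylin gene, was at 872, 1120.5 and 985 RPKM in WD, against 1638, 1346 and 1369 RPKM in ND (-0.62 ± 0.28). Guca2b, which encodes uroguanylin, was at 284, 283 and 247 RPKM in WD, against 782, 327 and 438 RPKM in ND (-0.90 ± 0.42). Their receptor gene Gucy2c was at 32.8, 33.5 and 31.4 RPKM in WD, against 38.9, 34.3 and 41.1 RPKM in ND (-0.28 ± 0.14). These 3 genes were named because their groups did not overlap, so that was chosen and not tested. They were the only 3 of the 19 list members not overlapping below, against 2.33% of all genes. Of 19 tested genes of ion transport and guanylin signaling 16 were lower, against 53.6% of all genes. The median was -0.19, or -0.07 without ND replicate 1, which held the highest value of Guca2a and Guca2b.

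Genes of drug metabolism, fat absorption and fatty acid oxidation lay lower in most cases, whereas those of lipid and cholesterol synthesis did not share the direction. Among 42 drug-metabolism (xenobiotic) genes, 39 lay lower with a median of -0.38, against 53.6% of all genes tested. The fat absorption list had 27 of 28 members lower (median -0.30), and that of fatty acid oxidation and PPAR targets 35 of 37 (median -0.21). At 5 to 50 and 50 to 500 RPKM, 37.6% and 27.6% of all genes were higher, with medians of -0.06 and -0.15. Groups did not overlap below for 4 xenobiotic, 2 fat absorption and 2 oxidation genes, against 2.33% of all genes. Of 21 genes of lipogenesis 10 were higher (median -0.0044), of 26 genes of cholesterol synthesis 13 were higher (median 0.0016) and of 12 genes of sterol export 8 were higher (median 0.04). Cyp3a13, a cytochrome P450, was at 49.7, 48.5 and 32.6 RPKM in WD, against 67.6, 65.5 and 71.8 RPKM in ND (-0.73 ± 0.37). Cyp2b10, a target of the xenobiotic receptor CAR, was at 0.736, 0.0864 and 0.116 RPKM in WD (35, 5 and 4 reads), against 1.99, 2.01 and 1.8 RPKM in ND (164, 117 and 92 reads). Sult1a1, a phenol sulfotransferase, was at 1.6, 2.69 and 1.75 RPKM in WD, against 3.22, 2.7 and 8.76 RPKM in ND (-0.88 ± 0.30), with WD replicate 2 and ND replicate 2 almost level and the value of ND replicate 2 irregular.

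Creb3l3 encodes a membrane-bound transcription factor of lipid metabolism in liver and intestine. It was at 60.2, 70.7 and 34.9 RPKM in WD, against 104.5, 81.4 and 91.9 RPKM in ND (-0.85 ± 0.41). Cideb, a lipid droplet protein of chylomicron maturation, was at 84.8, 108 and 86.6 RPKM in WD, against 126, 110 and 129.5 RPKM in ND (-0.45 ± 0.20). Mogat2, which rebuilds triglyceride from absorbed monoglyceride, was at 112, 108 and 112 RPKM in WD, against 137, 121 and 157 RPKM in ND (-0.38 ± 0.22). Decr1, a mitochondrial enzyme that reduces unsaturated fatty acids for oxidation, was at 7.24, 8.43 and 8.06 RPKM in WD, against 8.93, 9.29 and 12.8 RPKM in ND (-0.39 ± 0.14). In the HF libraries the same 3 lists had medians near 0 against ND, at -0.0044 for xenobiotic metabolism, 0.05 for fat absorption and 0.03 for oxidation. In NF_Sugar libraries these medians were -0.25, -0.13 and -0.03.

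Markers of fat cells, of the proximal intestine and of the ileum were lower in most cases as well. The lists share members, so their counts are not independent. Cyp2b10 of the xenobiotic list and Mogat2 of the fat absorption list are also proximal markers. Of 7 tested colon markers 3 were higher and 4 lower (median -0.0053). Of 15 tested adipocyte markers 14 were lower (median -0.26). Their mean level in log2(RPKM + 1) was 1.74, 2.54 and 1.73 in WD, against 2.51, 1.87 and 3.02 in ND, and without ND replicate 3 their median was -0.08. The defining adipocyte genes Adipoq (0.836, 3.17 and 1.51 RPKM in WD, against 2.75, 0.974 and 11.3 RPKM in ND) and Cfd (1.35, 9.54 and 1.07 RPKM in WD, against 12.9, 2.01 and 41 RPKM in ND) were highest in ND replicate 3. Pparg, the adipocyte and epithelial PPAR gene, was at 1.07, 1.34 and 1.71 RPKM in WD, against 2.5, 2.22 and 2.2 RPKM in ND (-0.53 ± 0.12). Its groups did not overlap and its difference stayed between -0.62 and -0.45 with any 1 library left out. Of 11 tested markers of the proximal intestine 8 were lower (median -0.26), among them Gata4, a factor of the proximal gut, at 2.37, 0.776 and 0.456 RPKM in WD, against 2.08, 3.01 and 2.3 RPKM in ND. Of 12 tested ileum markers 9 were lower as well (median -0.21, and -0.06 without ND replicate 1). Lct, the lactase gene, was at 5.27, 1.63 and 0.719 RPKM in WD, against 5.3, 8.56 and 4.87 RPKM in ND. Without ND replicate 3 the median of the oxidation and PPAR list was -0.12, and those of fat absorption and xenobiotic metabolism were -0.33 and -0.37. The fat absorption median was -0.18 without WD replicate 3. The part of fat tissue and gut position in these lists was not tested.

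**Figure D3:**
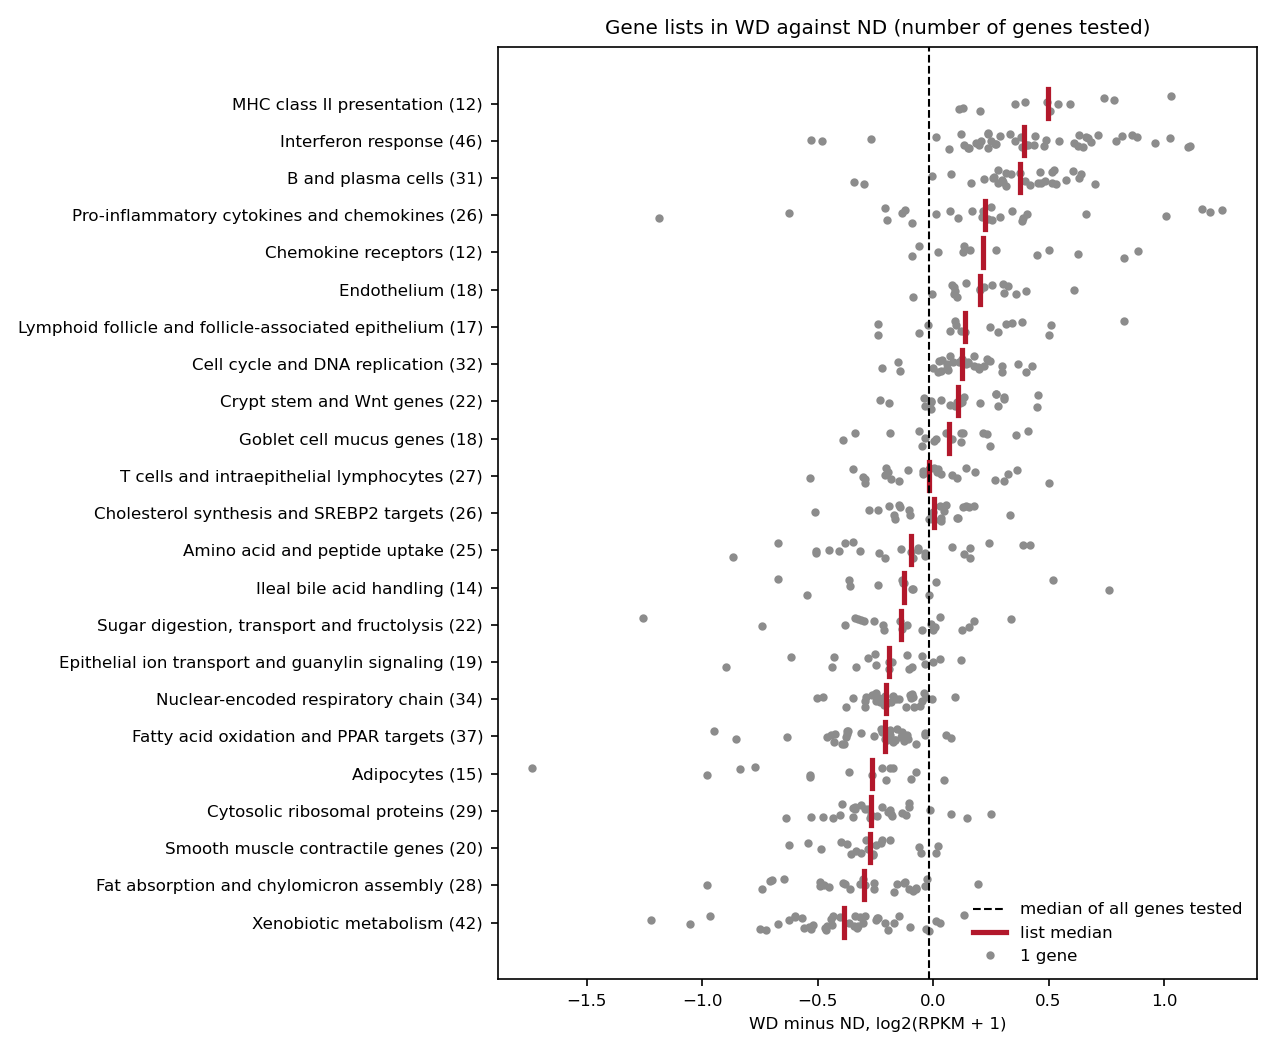
Differences of WD minus ND in log2(RPKM + 1) (horizontal axis) for the tested members of 23 gene lists (vertical axis, number of genes in brackets), with 1 grey point per gene, the list median in red and the median of all genes (-0.02) as a dashed line. Immune lists lie to the right, up to a median of 0.50 for MHC class II, and absorptive and metabolic lists to the left, down to -0.38 for xenobiotic metabolism.

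Housekeeping machinery was lower by small amounts. Of 34 nuclear genes of the respiratory chain 33 were lower (median -0.21), and of 29 cytosolic ribosomal protein genes 26 were lower (median -0.27). All genes between 50 and 500 RPKM had a median of -0.15, with 27.6% higher. The groups did not overlap for 0 members of either list, against 4.26% of all genes above and 2.33% below. The ribosomal mean was 6.42, 5.57 and 6.23 in WD, against 6.53, 5.86 and 6.54 in ND, so replicate 2 was lowest in both diets. The medians were -0.04 for both lists without WD replicate 2, and -0.28 (respiratory) and -0.48 (ribosomal) without ND replicate 2, which also stood apart. Without all 4 libraries that stood apart they were -0.15 and -0.21. Mitochondrially encoded transcripts took 6.07 ± 0.575% of the RPKM in WD and 6.1 ± 1.57% in ND (mean ± SD, n = 3 each; two-sided exact permutation test, p = 1, where 3 against 3 libraries cannot go below 0.1).

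Bile acid handling was split. Slc51b encodes the β chain of the transporter that passes bile acids to the blood. It was at 188, 283 and 246 RPKM in WD, against 320, 310.5 and 357 RPKM in ND (-0.55 ± 0.27). Fgf15, the enterokine that bile acids induce through FXR and that restrains bile acid synthesis in liver, was at 58.5, 45.3 and 66.7 RPKM in WD, against 36.2, 25.9 and 32.4 RPKM in ND. Its difference of 0.76 had an SE of 0.79 in the fit, which takes the spread from all diets, and NF_Sugar libraries ranged between 2.98 and 63 RPKM. Of 14 tested genes of this list 11 were lower and 3 higher.

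Genes of sugar sensing and sugar use did not follow 1 direction. Mlxipl encodes ChREBP, the carbohydrate-sensing transcription factor, and was at 14.6, 15.2 and 14.3 RPKM in WD, against 9.54, 7.95 and 13.2 RPKM in ND (0.45 ± 0.24). Its target Txnip was at 136, 140 and 151 RPKM in WD, against 93.7, 110 and 124 RPKM in ND (0.32 ± 0.17). Against ND, Mlxipl differed by 0.66 in HF and 0.24 in NF_Sugar (SE 0.24 each), and Txnip by 0.50 and 0.05 (SE 0.17 each). The mean of both was highest in HF, at 13.2, 23.2 and 15.8 RPKM for Mlxipl and 149, 203 and 135 RPKM for Txnip. HF replicate 2, a library that stood apart, held the highest value of each. HF replicate 1 for Mlxipl and HF replicate 3 for Txnip lay below the WD range. The fructose carrier gene Slc2a5 was at 22.7, 16.9 and 11.9 RPKM in WD, against 14.9, 18.8 and 15.9 RPKM in ND, a difference of -0.05 ± 0.27 whose sign turned under other scalings. Khk, the first enzyme of fructose breakdown, was at 82.3, 55.6 and 52.4 RPKM in WD, against 86, 51.7 and 93.3 RPKM in ND, and sucrase-isomaltase (Sis) at 118, 108 and 94.2 RPKM in WD, against 81, 85.3 and 109.5 RPKM in ND. Over the list, 15 of 22 genes that digest, carry or break down sugars were lower (median -0.14), while HF alone had a median of 0.29 against ND. The list median was -0.04, with 12 of 22 lower, without WD replicate 3, and -0.27 without WD replicate 1.

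On the higher side, the genes with the largest differences included several of immune cells. The 12 genes that the same rule gave were Cxcl10, Il1b, Ccl2, Ifit1, Tgtp1, Ccr7, Pik3ap1, Cxcr5, Parp14, Hist1h1b, Rnf213 and Cd37, with differences of 0.70 to 1.25. Irregular WD values stood behind Cxcl10, Il1b and Ccr7 among them. The monocyte attractant Ccl2 had no irregular value, but few reads, with 50, 60 and 21 reads in WD (1.95, 1.93 and 1.13 RPKM), against 3, 3 and 10 reads in ND (0.0676, 0.0958 and 0.364 RPKM), and an adjusted p of 0.228 by limma. At 0.447 RPKM or less in the other diets, Ccl2 passed the filter of 0.5 RPKM only through WD, where it is high.

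Antiviral effectors stood among the leading genes beside cytokines and lymphocyte receptors. Ifit1 encodes a protein that binds viral RNA caps and was at 7.39, 8.08 and 13 RPKM in WD, against 1.8, 6.34 and 4.49 RPKM in ND (1.03 ± 0.45). Tgtp1, a GTPase induced by interferon-γ, was at 1.67, 1.98 and 4.69 RPKM in WD, against 0.326, 1.24 and 1 RPKM in ND (0.94 ± 0.28). Parp14, an ADP-ribosyltransferase of interferon and IL-4 responses, was at 8.41, 6.45 and 9.93 RPKM in WD, against 2.76, 5.02 and 4.49 RPKM in ND (0.82 ± 0.27). Rnf213, a very large ubiquitin ligase, was at 3.96, 2.87 and 5.39 RPKM in WD, against 1.45, 2.22 and 2.24 RPKM in ND (0.71 ± 0.23). In these 4 genes ND replicate 1 was the lowest library of its group. Nlrc5, the transactivator of MHC class I genes, was at 1.76, 1.09 and 1.79 RPKM in WD, against 0.296, 0.976 and 0.829 RPKM in ND (0.56 ± 0.21). Of 46 tested interferon-response genes 43 were higher, against 46.4% of all genes, with 7 not overlapping above (4.26% of all genes) and 1 below (2.33%). That 1 was the exonuclease gene Isg20, at 1.34, 1.32 and 1.25 RPKM in WD, against 1.49, 1.54 and 2.12 RPKM in ND (-0.27 ± 0.09). The median of the list was 0.39, and 0.26 without ND replicate 1. The list mean was 2.84, 2.73 and 3.06 in WD, against 2.15, 2.81 and 2.41 in ND, so the groups overlapped. At an unadjusted limma p under 0.05, 9 members were higher (2.19% of all genes), but 1 without ND replicate 1.

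The promoters of this list were searched for the interferon-stimulated response element, which was taken as GAAA, any 2 bases and GAAA on either strand, in the window from 250 bases before to 50 bases after the gene start. Sequences are those of RefSeq on build GRCm38.p6, where 33 of the 46 tested members had a promoter. The element was found in 19 of 33 members (57.6%) and in 3.99% of 27025 genes. The list was made of interferon-response genes, so this share describes the list and not WD against ND. The element was also found in 3 of 37 xenobiotic genes (8.11%) and in 0 of 29 genes of fatty acid oxidation. Of the lists with most members higher, it was in 2 of 22 B- and plasma-cell genes (9.09%) and in 1 of 9 MHC class II genes (11.1%). The promoters of Ifit1 (chr19:34640639-34640938, plus strand), Tgtp1 (chr11:48992197-48992496, minus strand) and Cxcl10 (chr5:92348840-92349139, minus strand) are shown as those of leading genes that hold it, 5′ to 3′ in the direction of the gene, with each match in capitals. A match is a description of the letters and not of binding.
Ifit1: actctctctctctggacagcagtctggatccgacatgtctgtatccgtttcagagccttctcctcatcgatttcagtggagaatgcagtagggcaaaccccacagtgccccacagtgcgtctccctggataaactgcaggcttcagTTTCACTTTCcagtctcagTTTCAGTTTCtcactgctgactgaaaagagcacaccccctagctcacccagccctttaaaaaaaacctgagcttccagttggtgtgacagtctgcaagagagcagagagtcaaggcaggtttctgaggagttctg
Tgtp1: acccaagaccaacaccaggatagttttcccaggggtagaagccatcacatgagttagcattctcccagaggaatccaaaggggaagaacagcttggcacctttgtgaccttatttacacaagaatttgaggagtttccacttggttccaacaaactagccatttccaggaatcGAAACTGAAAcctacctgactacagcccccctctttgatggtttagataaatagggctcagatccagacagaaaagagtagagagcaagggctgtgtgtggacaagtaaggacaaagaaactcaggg
Cxcl10: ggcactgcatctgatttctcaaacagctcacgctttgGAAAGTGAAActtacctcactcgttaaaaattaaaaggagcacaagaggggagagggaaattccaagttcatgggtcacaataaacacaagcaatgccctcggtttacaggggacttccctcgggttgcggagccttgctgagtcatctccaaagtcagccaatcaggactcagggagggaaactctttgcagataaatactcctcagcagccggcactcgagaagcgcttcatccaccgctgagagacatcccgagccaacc

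Ifit1 held 2 matches, which began 104 and 85 bases before the gene start, while Tgtp1 held 1 match 77 bases and Cxcl10 1 match 213 bases before it.

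**Figure D4:**
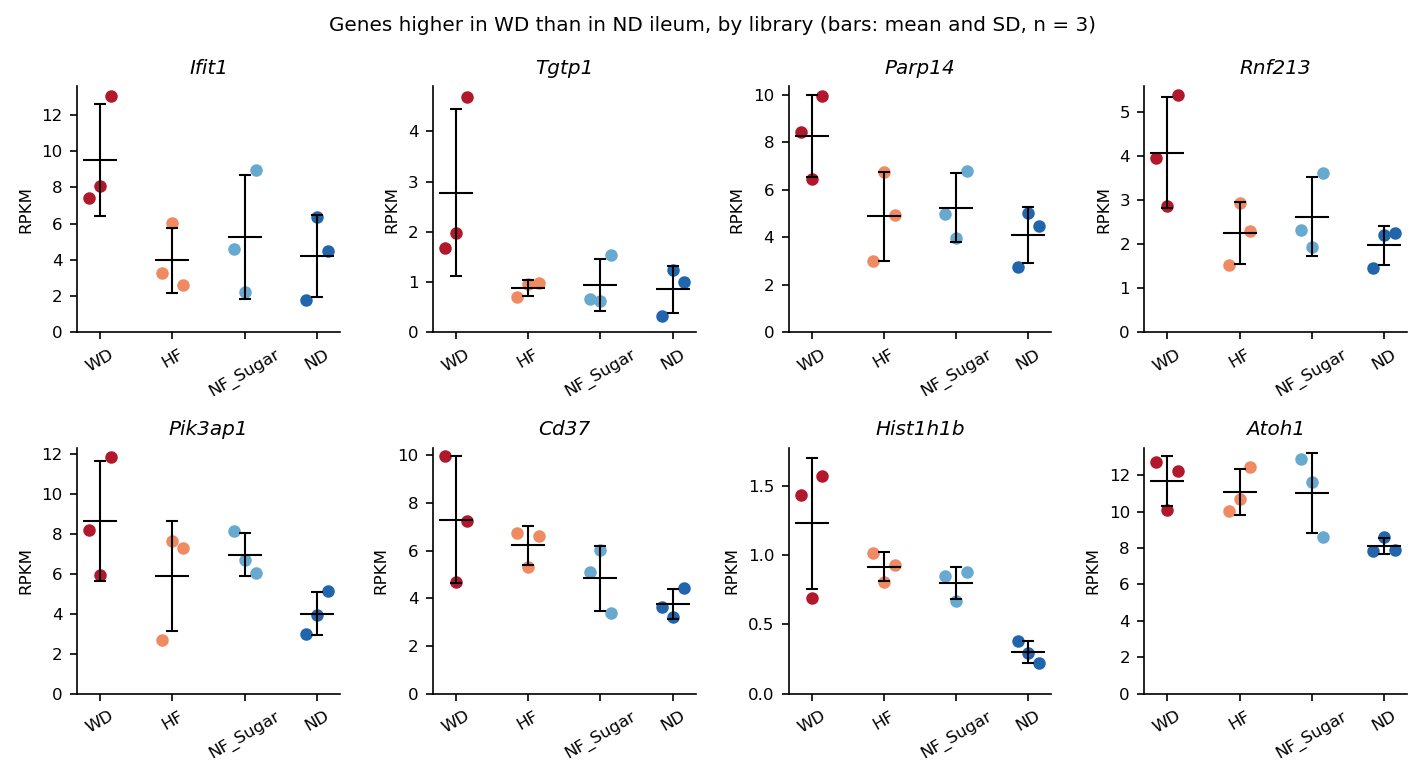
RPKM (vertical axes) of 8 genes in each of the 12 libraries in the 4 diets (horizontal axes), where bars in black give the mean and SD of 3 mice. The 3 WD points lie above the 3 ND points in every panel, for Parp14 at 6.45 to 9.93 against 2.76 to 5.02 RPKM. The SD of the WD libraries is largest for Ifit1 (3.08 RPKM) and Pik3ap1 (3.00 RPKM).

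B-cell genes were higher in most cases. Of 31 tested B- and plasma-cell genes 28 were higher and 14 had all WD libraries above all ND libraries, against 4.26% of all genes. The list median was 0.37, and 0.25 without WD replicate 1. Cd37, a tetraspanin of mature B cells, was at 9.98, 4.68 and 7.24 RPKM in WD, against 3.64, 3.22 and 4.43 RPKM in ND (0.70 ± 0.24). Tnfrsf13c, the receptor for the survival factor BAFF, was at 4.78, 2.64 and 3.75 RPKM in WD, against 1.87, 1.96 and 2.59 RPKM in ND (0.52 ± 0.20). Irf4, a factor of plasma cell differentiation, was at 1.81, 0.908 and 1.41 RPKM in WD, against 0.387, 0.697 and 0.895 RPKM in ND (0.49 ± 0.17). Ighm, the IgM heavy chain, was at 45.2, 27.4 and 37.2 RPKM in WD, against 20.1, 24.7 and 21.9 RPKM in ND (0.60 ± 0.27). Igha, the far more abundant IgA heavy chain, overlapped, at 2017, 981 and 2120 RPKM in WD, against 684.5, 1370.1 and 1335 RPKM in ND. In each of these 5 genes WD replicate 2 was the lowest of the WD libraries. Pik3ap1, the B-cell signaling adaptor BCAP that is also found in myeloid cells, was at 8.17, 5.92 and 11.9 RPKM in WD, against 2.97, 3.92 and 5.12 RPKM in ND (0.87 ± 0.32), and NF_Sugar libraries stood at 6.01 to 8.15 RPKM.

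Markers of lymphoid follicles moved in the same direction as the B-cell genes. Of 17 tested markers of the follicle and its epithelium 13 were higher (median 0.14), against 46.4% of all genes, and 4 had all WD libraries above all ND libraries, against 4.26%. The median was 0.23 without WD replicate 2 and 0.22 without WD replicate 3. Cr2, the complement receptor of B cells and follicular dendritic cells, was at 0.837, 0.482 and 0.522 RPKM in WD, against 0.199, 0.287 and 0.454 RPKM in ND (0.28 ± 0.15). Ccr6, a chemokine receptor that draws lymphocytes to Peyer's patches, was at 0.941, 0.612 and 0.969 RPKM in WD, against 0.253, 0.358 and 0.204 RPKM in ND (0.50 ± 0.18). The mean of the follicle list was 1.97, 1.7 and 1.86 in WD, against 1.64, 1.7 and 1.61 in ND, in log2(RPKM + 1). How much follicle each piece of ileum held was not tested. Of 27 tested T-cell genes 13 were higher and 14 lower, but the count turned on single libraries. It was 6 higher without ND replicate 1 (median -0.25), 18 without ND replicate 3, and 21 without the 4 libraries that stood apart (median 0.12). Cd8a, the CD8 α chain of cytotoxic and intraepithelial T cells, was at 1.91, 1.8 and 2.35 RPKM in WD, against 0.854, 1.18 and 1.2 RPKM in ND (0.50 ± 0.16).

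MHC class II genes depended on 1 ND library. All 12 tested members were higher with a median of 0.50, but without ND replicate 1 the count was 7 of 12 and the median 0.03. The list mean was 5.56, 5.29 and 5.63 in WD, against 4.07, 5.6 and 5.33 in ND. Cd74, the invariant chain, was at 1227, 1119 and 1526 RPKM in WD, against 246, 1596 and 1499.8 RPKM in ND. H2-Ob, a class II gene of B cells, was at 4.52, 3.15 and 4.21 RPKM in WD, against 1.95, 2.66 and 2.56 RPKM in ND (0.49 ± 0.19). It was the only 1 of the 12 members whose groups did not overlap, where 4.26% of all genes did not overlap above.

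**Figure D5:**
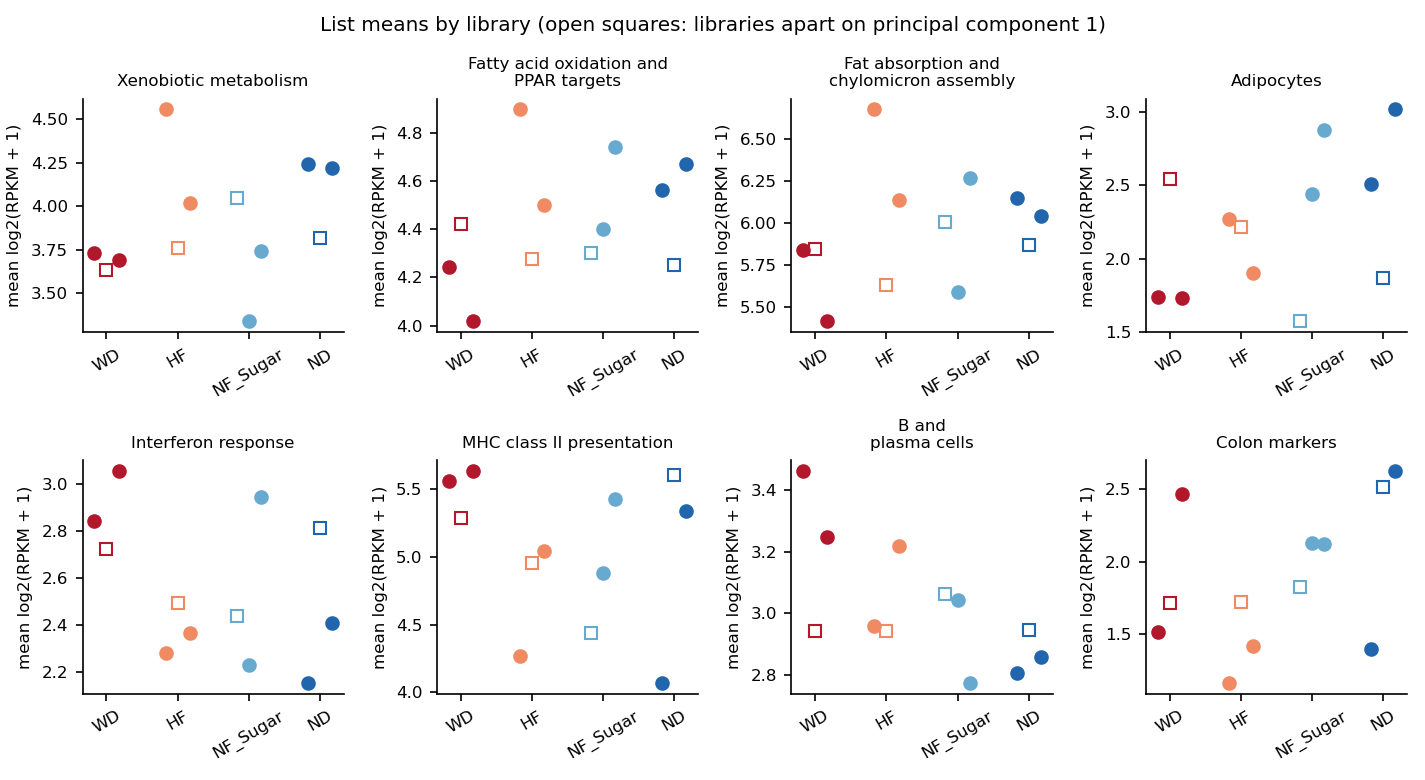
Mean log2(RPKM + 1) of 8 gene lists (vertical axes) in each of the 12 libraries by diet (horizontal axes), with open squares for the 4 libraries that stood apart on the first principal component. For MHC class II, ND replicate 1 lies at 4.07 below the WD range of 5.29 to 5.63, while ND replicate 3 is the highest for adipocytes at 3.02.

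Cell cycle genes were slightly higher. Of 32 genes of the cell cycle and DNA replication 28 were higher, by a median of 0.13, against 46.4% of all genes. The groups did not overlap for 0 of the 32, against 4.26% of all genes above and 2.33% below. Without WD replicate 3 the count was 20 of 32 and the median 0.05. Of 22 crypt stem and Wnt genes 15 were higher (median 0.11), but 11 of 22 without ND replicate 3. Hist1h1b, a linker histone made in S phase, was among the leading genes, at 1.43, 0.688 and 1.57 RPKM in WD (24, 14 and 19 reads), against 0.38, 0.294 and 0.223 RPKM in ND (11, 6 and 4 reads). Atoh1, the master factor of the secretory lineage, was at 12.7, 10.1 and 12.2 RPKM in WD, against 7.84, 8.6 and 7.87 RPKM in ND (0.41 ± 0.18). Cd44, a surface receptor of crypt cells and leukocytes, was at 2.74, 2.52 and 4.17 RPKM in WD, against 1.7, 1.94 and 2.03 RPKM in ND (0.45 ± 0.16). Lgr5, the marker of crypt stem cells, overlapped in part, at 0.636, 1 and 1.28 RPKM in WD, against 0.52, 0.698 and 0.529 RPKM in ND (0.27 ± 0.14). Marveld2, the tricellular tight junction protein tricellulin, was at 10.8, 9.47 and 13 RPKM in WD, against 7.43, 8.39 and 9.14 RPKM in ND (0.31 ± 0.12), whereas 12 of the 18 tight junction genes were lower.

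Antimicrobial lectins varied too much between mice for a direction. Reg3b, a bactericidal lectin of enterocytes and Paneth cells, was at 7867, 2153 and 2217 RPKM in WD, against 2422, 2795 and 2318 RPKM in ND (0.35 ± 0.63), and its sign turned without WD replicate 1. Reg3g (4146, 1656 and 1106 RPKM in WD, against 1614, 2127 and 1097 RPKM in ND) and the acute-phase gene Saa1 (222, 89.8 and 44.6 RPKM in WD, against 64.8, 114 and 60.1 RPKM in ND) turned as well, Reg3g also without ND replicate 3. Of 23 genes of the α-defensin and Paneth cell list, which also holds Guca2b, 15 were higher (median 0.12). The count was 1 of 23 without ND replicate 3 (median -0.40) and 9 of 23 without WD replicate 3 (median -0.04). Defa2, an α-defensin of Paneth cells outside that list, was at 5635, 9355 and 9363 RPKM in WD, against 10100, 10677 and 12920 RPKM in ND (-0.57 ± 0.37). Its value in ND replicate 3 was irregular, and it has near-identical paralogs that can share reads.

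Among the taste, tuft cell and hormone genes, 6 of 13 taste and tuft cell genes were higher and 7 lower (median -0.01), and 13 of 21 hormone and enteroendocrine genes were higher (median 0.01). Tas1r3, the shared subunit of the sweet and umami receptors, had fractions of a read in all 3 WD libraries, at 0.956, 0.646 and 0.711 RPKM in WD, against 0.314, 0.279 and 0.47 RPKM in ND (0.37 ± 0.10). At 0.47 RPKM or less in the other diets, Tas1r3 reached the filter of 0.5 RPKM only through WD. Trpm5, the cation channel downstream of taste receptors, was at 1.28, 1.48 and 1.61 RPKM in WD, against 1.52, 0.892 and 1.52 RPKM in ND (0.06 ± 0.13). Gcg, the proglucagon gene, was at 13.5, 17.3 and 25.1 RPKM in WD, against 12.2, 11.1 and 10.2 RPKM in ND (0.59 ± 0.21), with the value of WD replicate 2 irregular. Mtor, the nutrient-sensing kinase, was at 2.13, 2.06 and 2.02 RPKM in WD, against 1.92, 1.63 and 2.16 RPKM in ND (0.04 ± 0.09).

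Whether fat and sugar together departed from the sum of their separate differences was tested as an interaction in the same fit. Of 17662 genes 0 (0%) were called, 448 had an unadjusted p under 0.05, and the smallest limma adjusted p was 0.584. The median SE of the interaction was 0.25, against 0.18 for WD minus ND. Of the 12 leading lower genes 11 were also below ND in HF and 11 in NF_Sugar, with medians of -0.98 in WD, -0.49 in HF and -0.85 in NF_Sugar. Of the 12 leading higher genes 10 were above ND in HF and 11 in NF_Sugar, with medians of 0.88 in WD, 0.16 in HF and 0.27 in NF_Sugar. The leading genes were chosen on WD against the same ND libraries, so these counts are a description. For Ifit1 the interaction was 0.86 ± 0.64 and for Areg 0.80 ± 0.43, with an adjusted p by limma of 1 for each after rounding.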

How the data were processed

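RNA of 12 ileum samples (3 mice in each of 4 diets) was sequenced. By the study's methods the authors mapped Ion Proton reads to mm10 with STAR in Partek, and quantified Ensembl transcripts. The deposited values were taken as RPKM, a unit that labels and header do not name, since low values are whole multiples of a step that varies by gene. The 12 per-sample files equalled their columns, and 26 rows named by bare numbers were left out. RPKM was scaled by trimmed mean of M values (30% and 5% trimmed) and log2(RPKM + 1) was modelled by limma 3.58.1 under R 4.3.3, with a mean for each of 4 groups, 8 residual degrees of freedom and an intensity trend, and Benjamini-Hochberg adjustment, after a test on simulated data. The design also held a count test for the case of deposited counts, which was not run. Reads recovered from the RPKM entered limma-voom as an alternative. Depth of 15.3 to 39 M reads per library was read off the spacing of low RPKM values, and 72.2% to 80.5% of reads fell in genes. A value was irregular with over 6 digits or if over 0.1 from a whole read (up to 300 reads) in 1 diet alone, and recovered reads serve as an approximation. By symbol, 40607 of 44205 genes matched GENCODE M21.

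Named genes were the 12 leading genes each way (defined in the text, passing over predicted genes and receptor segments), up to 4 members of each of 55 lists with the smallest p among non-overlapping ones, genes of the study's text and best-known list members. Members, lists and tests were chosen with earlier results of these data known. Lists were described by counts and medians. Same-numbered WD and ND libraries had correlations of deviations of 0.189, 0.51 and 0.215, and different-numbered ones of -0.496 to 0.355. The 0.51 is that of the WD and ND libraries that stood apart. These values do not settle whether the numbers pair mice, and nothing in the labels says what a number shares. The replicate number as a block was therefore only an alternative. Other alternatives were scaling, pseudocount, filter, gene class, library cluster, limma-voom on recovered reads, irregular genes, the study's thresholds and each library left out. Each library is 1 mouse. Figures used Python 3.11.15 and matplotlib 3.10.9.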

Additional observations from a re-analysis of the deposited data

How the results depend on the processing

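In WD against ND, 0 genes were called under 18 of the 21 alternatives. The study's thresholds of 2-fold and an adjusted p of 0.01 also gave 0. The fold was taken here as a difference of 1 in log2(RPKM + 1), which is harder to reach for scarce genes than the study's DESeq2 fold. The smallest limma adjusted p of 0.081 was above 0.01 in any case. With protein-coding genes alone 4 were called, all higher (Il1b 1.20, Cxcl10 1.25, Ccl2 1.16 and Ifng 0.66). Il1b, Cxcl10 and Ifng hold irregular WD values, and Ccl2 and Ifng, at 0.447 RPKM or less in the other diets, passed the filter only through WD. With no filter on low values 4 were called, all lower (1700011D18Rik, Gm12131, Gm12578 and Tcrg-V6, each with 1 or 2 reads in every ND library and 0 in the other 9). Leaving out 1 library gave 0 to 1 calls, the 1 without ND replicate 1 being Igkv12-40 (-2.37). The interaction had 0 calls throughout. Without genes with irregular values the smallest adjusted p was 0.812 instead of 0.081. As deposited, without further scaling, 602 genes were higher and 197 lower at an unadjusted p under 0.05, against 387 and 406 after scaling. With the replicate number as block 0 genes were called (790 at an unadjusted p under 0.05). In the 6 libraries with replicate block 0 were called as well (973), an alternative chosen after seeing the data. The block thus changed no call. Without the 4 libraries that stood apart 1693 genes had an unadjusted p under 0.05. The 24 leading genes kept their sign in all 488 alternative values, which their choice by groups that do not overlap largely fixes. Of 2391 values of all named genes 20 turned, those of 10 genes: without the libraries apart Trpm5 (-0.067), Mtor (-0.00074) and Slc2a5 (0.064), with quantile normalization Fabp6 (0.063), Slc10a2 (0.060) and Slc2a5 (0.033), and as deposited Slc2a5 (0.014). With 1 library left out the ranges were -0.050 to 0.16 (Trpm5), -0.59 to 0.38 (Fabp6), -0.29 to 0.12 (Slc10a2), -0.28 to 0.69 (Reg3b), -0.29 to 0.72 (Reg3g), -0.35 to 0.85 (Saa1), -0.30 to 1.06 (Cd74), -0.28 to 0.21 (Slc2a5) and -0.15 to 0.0033 (Ddx3y). The causes were not tested. With 3 mice a diet and a median SE of 0.18, genes with differences as large as -1.87 (Pck1) and -1.32 (Slc30a10) were not called. The size of difference that could be detected was not tested, so a gene not called is not shown to be unchanged.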

Other observations

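Several gene groups belong in no comparison above. Endothelial markers were higher in 16 of 18 cases (median 0.20), with Cdh5, the vascular cadherin gene, at 1.93, 1.99 and 2.83 RPKM in WD, against 1.3, 1.5 and 1.71 RPKM in ND, and Robo4, a receptor of vessels, at 1.02, 0.861 and 0.996 RPKM in WD, against 0.663, 0.576 and 0.773 RPKM in ND. Smooth muscle genes were lower in 18 of 20 cases (median -0.27, and -0.11 without ND replicate 1), while their list mean overlapped (4.51, 5.19 and 4.4 in WD, against 5.25, 4.69 and 4.97 in ND).

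Of 17 tested clock genes 8 were higher and 9 lower (median -0.10), against 46.4% and 53.6% of all genes. Groups did not overlap above for 1, Nfil3 (4.26% of all genes), and below for 1, Ciart (2.33%). Ciart, a repressor of the clock, was at 0.0785, 0.355 and 0.38 RPKM in WD, against 0.897, 0.707 and 0.605 RPKM in ND. Nr1d1, which encodes REV-ERBα, was at 19.1, 22.7 and 24.1 RPKM in WD, against 37.7, 37.3 and 25 RPKM in ND. Nfil3, a basic leucine zipper factor that the clock controls, was at 16.1, 12 and 10.2 RPKM in WD, against 5.66, 6.85 and 6.75 RPKM in ND (0.81 ± 0.43). The hour of tissue collection is not given in the sources used here.

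The heat shock genes Hspa1a (14.3, 5.49 and 4.53 RPKM in WD, against 2.64, 2.79 and 3.79 RPKM in ND) and Hspa1b (19.9, 8.79 and 6.62 RPKM in WD, against 4.29, 4.25 and 4.95 RPKM in ND) did not overlap, while 9 of 14 heat shock chaperones were lower. These near-identical neighbours can share reads. Of 227 tested immunoglobulin variable segments 141 were higher and 86 lower, and of 65 clustered histone genes 53 were higher (median 0.26). Of 44 cytochrome P450 genes 38 were lower (median -0.19). The predicted gene Gm43552, named here after its values were seen, was at 8.86, 5.41 and 6.66 RPKM in WD, against 0.015, 4.2e-05 and 2.17 RPKM in ND, with HF at 2.99 to 11.7 RPKM and NF_Sugar at 0.0445 to 10.6 RPKM.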
